A study of Mus musculus with 16 samples.

Results

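The 8 libraries described here compare CD4 T cells labelled deficient in Sin3A with cells labelled sufficient, after 3 days of Th17 polarization. They are all libraries of the series whose names start with D3, 8 of 16 in all, 4 Sin3A sufficient and 4 Sin3A deficient. Every library came from highly purified CD4 T cells of C57BL/6 J mice, 2 months old, of the genotype Rosa26-CreERT2 +/- Sin3AF/F. These mice carry floxed Sin3a alleles and a Cre recombinase that tamoxifen activates and that is expressed from a ubiquitous locus. The cells were held for 6 days in IL7, without tamoxifen (sufficient) or with it (deficient), and then for 3 days in Th17 polarizing conditions. The sufficient libraries are named D3955, D3957, D3959 and D3960, and the deficient libraries D3TAM955, D3TAM957, D3TAM959 and D3TAM960, and values are given below in that order. D3959 and D3TAM959 are labelled female and the other libraries male. Cells of sufficient and deficient groups all carry CreERT2 and the floxed alleles, and tamoxifen-treated cells without floxed alleles were not analysed here, so deletion and tamoxifen cannot be told apart. The labels do not say that the 4 libraries of a group came from separate mice, so the p-values measure the spread between these libraries, which may be partly technical.

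Sin3A is the scaffold of a corepressor complex that brings the histone deacetylases HDAC1 and HDAC2 to sequence-specific transcription factors. Th17 cells arise when CD4 T cells are activated in the presence of TGF-β and IL-6. STAT3 acts downstream of IL-6 and is needed for Il17a and Il17f, while IL-23 and IL-1 receptors sustain the programme and HIF-1α couples it to glycolysis.

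The values are normalized counts, reads divided by the authors' size factor of the library, and restored totals ran from 19740982 reads (D3960) to 26183929 reads (D3TAM960). In the authors' deposited table, gene names stand only beside genes with a lower value in the deficient Th17 cells, so no other row could be named. The direction of every named gene was therefore fixed by the naming, and genes higher in deficient cells appear as counts of unnamed rows. Of the members of the 52 gene lists used below, 818 of 1444 are listed in the authors' deposited table, and the others were not analysed here. The first principal component of the 8 libraries took 72.9% of the variance and separated the groups. The second took 7.43% and set D3955 and D3TAM955 apart from the other 6. Pearson's r of log2 values between libraries of a group ran from 0.974 to 0.991 across rows, which are not independent replicates. In bulk RNA, fewer cells of a type and less RNA per cell cannot be told apart.

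Sin3A-deficient Th17 cells differed from sufficient cells over a large part of the 16071 rows tested. In deficient cells 4440 rows were lower (27.6%) and 4077 were higher (25.4%), at a limma adjusted p under 0.05. The order of these counts turned with the scaling, to 4033 lower and 4426 higher under trimmed-mean scaling and 4200 lower and 4304 higher under median-of-ratios scaling. Over all called rows the falls were larger than the rises, with a median log2 change of -0.89 among lower rows and 0.66 among higher rows. A fall of 2-fold or more was called in 1990 rows (12.4%) and a rise of that size in 982 (6.11%). That excess of falls lay in rows with a mean under 100 normalized counts, with 1345 lower and 332 higher by 2-fold or more. Between 100 and 1000 there were 493 lower and 469 higher, and between 1000 and 10000 there were 142 lower and 180 higher. Above 10000 there were 10 lower and 1 higher. At 8-fold or more, 123 rows were lower and 34 higher. The shares of lower and higher rows varied with the level of the gene. Among the 5301 rows with a mean under 100 normalized counts, 30.4% were lower and 8.81% higher. Among the 5104 rows between 1000 and 10000, 23% were lower and 36.9% higher, and among the 272 rows above 10000 the shares were 47.4% and 11.8%.

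**Figure D1:**
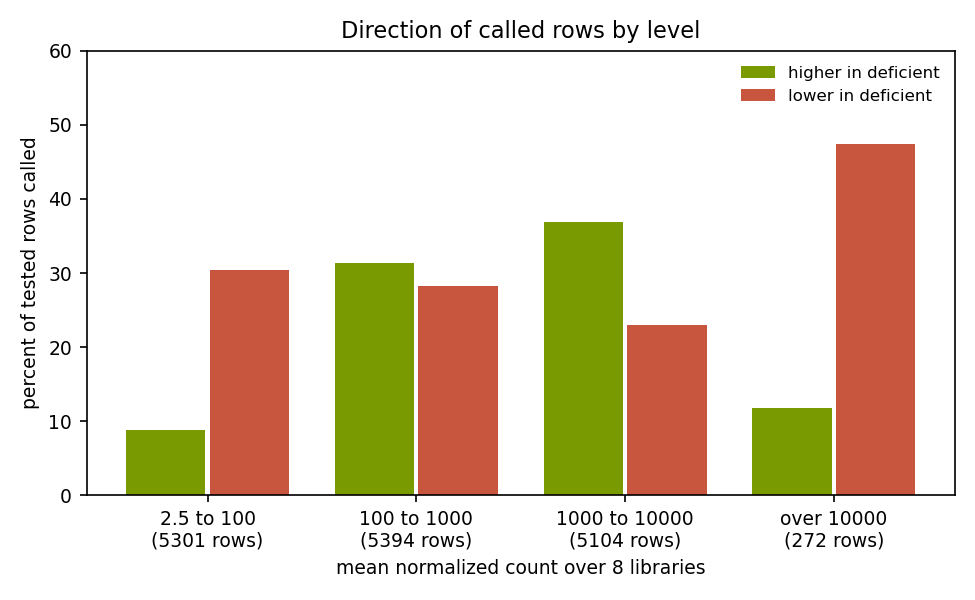
Percent of tested rows called higher (green) or lower (red) in deficient Th17 cells, by the mean normalized count over the 8 libraries, with the number of rows under each class. Lower rows outnumber higher ones in the lowest class (30.4% against 8.81%) and in the highest class (47.4% against 11.8%), and higher rows outnumber lower ones between 1000 and 10000 (36.9% against 23%).

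Named genes made up 7952 of the rows tested, and 4047 of them (50.9%) were lower, 1678 by 2-fold or more (21.1%). Their median log2 change was -0.46, against -0.07 over all rows tested. A list of named genes is read below against the share of 50.9%, since none of its members could be called higher. Falls of 2-fold or more within a list are read against 21.1%. Of the 8119 rows with no name, 4077 were higher (50.2%) and 393 were lower (4.84%). The 4 libraries of one group lay entirely above or below those of the other in 7626 rows (47.5%), 3510 of them named (44.1% of the named rows tested). Except for Sin3a, the Th17 lists, cell type markers and genes with the smallest changes, genes described below were chosen among those called without overlap. Separate groups in them follow from that choice. A row with no read in a group could not be joined to a name, and 451 listed names were not joined. Lower rows may lack a name for that reason. By the read limits given next, 7 unnamed rows and no named gene were near 0 in 1 group and present in the other. In 2 of these rows the sufficient libraries held at most 3 reads together while each deficient library held at least 10, and in 5 rows it was the other way around.

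**Figure D2:**
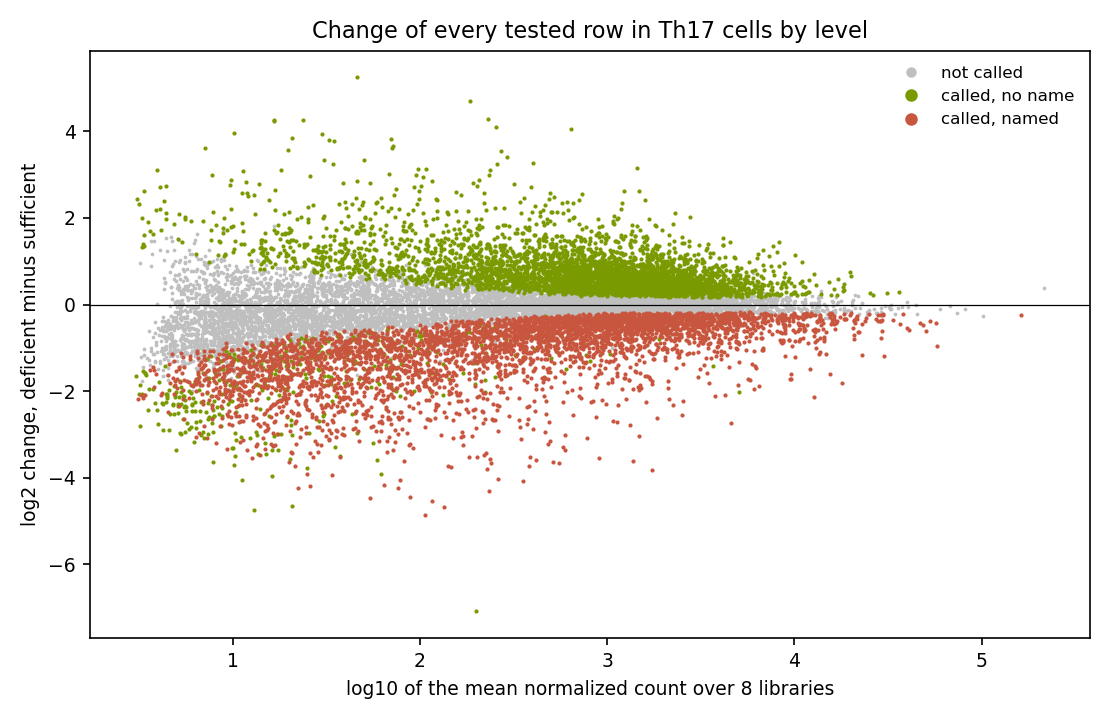
Log2 change (deficient minus sufficient) of each tested row against the log10 of its mean normalized count over 8 libraries. Called rows with a name are red and lie below 0, called rows without a name are green and lie mostly above 0 (4077 higher, 393 lower), and rows that did not pass are grey.

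Sin3a (ENSMUSG00000042557), the targeted gene, stood at 2019.7, 2271, 2239.9 and 1892 normalized counts in the sufficient libraries. In the deficient libraries it stood at 1727, 1806, 1827 and 1737. All 4 deficient libraries were lower than all 4 sufficient ones, by a small margin. The change came to -0.24 ± 0.08 on the log2 scale (SE, limma adjusted p = 0.0209). Without D3957, D3959 or D3TAM960 the gene no longer passed (limma adjusted p = 0.0729, 0.0637 and 0.052), nor did it under trimmed-mean scaling (limma adjusted p = 0.0542). Which exons are floxed is not given in the labels, and reads were totalled over the whole gene, so this value is no direct measure of the deletion.

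The cytokine genes of Th17 cells were led by Il17a, which had the deepest fall among them, and the fall was shared by Il17f, Il22 and Il10. Of 9 of 10 list members the authors' deposited table lists as lower, 8 were tested and 6 fell, 5 of them by 2-fold or more. Il17a, encoding IL-17A, stood at 1072, 2275, 2953 and 3929 normalized counts in the sufficient libraries. In the deficient libraries Il17a was at 133, 168, 162 and 349.7. The lowest sufficient library, D3955, was still above the highest deficient one, D3TAM960. This is a log2 change of -3.60 ± 0.37 (SE, limma adjusted p = 1.27e-05). Il17f, encoding IL-17F, went from 20569.7, 26033, 35932 and 29471 to 8842, 8180.5, 7591 and 7028, a log2 change of -1.80 ± 0.14 (SE, limma adjusted p = 2.54e-06). The Il17f values of the deficient libraries lay close together, and none reached any sufficient library.

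The upstream sequences of this pair of neighbouring genes are shown because the nuclear receptor RORα, a factor of Th17 cells, binds the half-site AGGTCA. Each is the stretch of 250 bases that ends at the RefSeq start site (GRCm38.p6), Il17a at chr1:20730655-20730904, plus strand, and Il17f at chr1:20784271-20784520, minus strand. Capitals mark AGGTCA or its reverse complement.
Il17a: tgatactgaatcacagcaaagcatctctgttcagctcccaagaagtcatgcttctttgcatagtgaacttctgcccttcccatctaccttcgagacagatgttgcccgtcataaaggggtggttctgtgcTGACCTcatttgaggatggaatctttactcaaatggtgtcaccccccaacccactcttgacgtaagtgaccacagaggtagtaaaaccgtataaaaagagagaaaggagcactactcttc
Il17f: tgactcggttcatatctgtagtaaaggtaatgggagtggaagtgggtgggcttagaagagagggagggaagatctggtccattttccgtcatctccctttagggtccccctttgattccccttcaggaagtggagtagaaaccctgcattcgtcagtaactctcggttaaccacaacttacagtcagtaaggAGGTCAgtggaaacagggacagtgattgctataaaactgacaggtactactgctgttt
Each held 1 match on either strand, and among the 7 tested cytokine genes with a promoter in the RefSeq table these were the only ones with a match. Over all 27025 genes of that table, 13.8% had a match in the same window. The STAT motif TTCNNNGAA had no match in the 7 windows (7.18% of the table), and the AP-1 motif TGANTCA had one in 2 of them, Il17a and Il9 (6.87% of the table). A match describes the letters only and is not evidence of binding.

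Il22, which encodes the epithelial cytokine IL-22, was at 3343, 6909, 9521 and 7920.3 in sufficient and 1210.4, 1827, 1057 and 2338 in deficient libraries. The groups did not overlap (log2 change -2.08, SE 0.31, limma adjusted p = 0.00016), and D3955 was again the lowest sufficient library. Il10, encoding the anti-inflammatory cytokine IL-10, went from 1108, 1123, 1352 and 1809 to 409, 563, 478 and 426 (log2 change -1.50, SE 0.16, limma adjusted p = 1.51e-05). The groups were separate for Il10 as well, and D3960 was the highest library.

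Il21, encoding IL-21, fell less, from 4929, 5361, 6134 and 6089 to 3815, 5105, 3432 and 4003, and D3TAM957 lay above D3955, so the groups overlapped (log2 change -0.47, SE 0.12, limma adjusted p = 0.00534). Without D3959 and D3TAM959, and with all 16 libraries in 1 fit, Il21 did not pass. Csf2, encoding GM-CSF, was a low gene at 37.5, 36.8, 70.4 and 69.96 and 21.1, 15, 3.83 and 38.8 and passed with overlapping groups (log2 change -1.69, SE 0.54, limma adjusted p = 0.0199). It no longer passed without D3959 (limma adjusted p = 0.0556) or D3960 (0.0576). Il9 and Tnf did not pass. Tnf, encoding tumour necrosis factor, stood at 433, 1042, 1576 and 1071 and 867, 1064, 645 and 922 (log2 change -0.12, SE 0.31, limma adjusted p = 0.767), and it passed as lower once D3955 was left out (limma adjusted p = 0.0355). Il9 was spread widely in both groups, at 1273, 4062, 4884 and 2074 and 1867, 1811, 3052 and 3149.9 (log2 change -0.17, SE 0.36, limma adjusted p = 0.71).

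**Figure D3:**
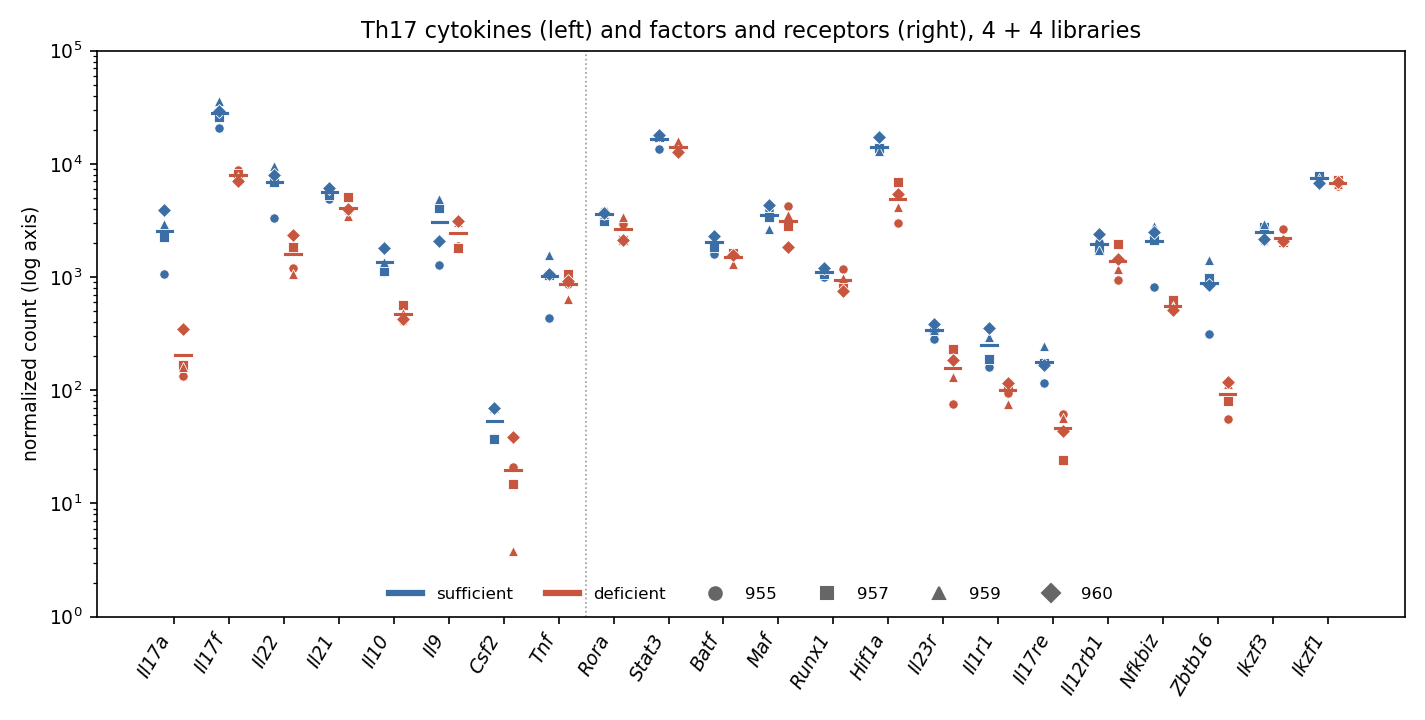
Normalized counts (log axis) of the tested Th17 cytokine genes, left of the dotted line, and the Th17 factor and receptor genes described in the text, right of it, in sufficient (blue) and deficient (red) libraries, with bars at the group means and a symbol for each library number. Il17a falls from between 1072 and 3929 to between 133 and 350, while Maf and Stat3 overlap between groups.

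Among the transcription factors and receptors of the Th17 programme, the receptor genes Il23r, Il1r1 and Il17re and the factor genes Hif1a, Nfkbiz and Zbtb16 fell by 2-fold or more. Rora and the receptor gene Il12rb1 passed with smaller changes, and Stat3, Maf and Runx1 did not pass. Of 15 of 20 members listed as lower, all 15 were tested, 10 fell and 6 of these fell by 2-fold or more. Leaving out D3960 and D3TAM960 left 6 falling.

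Rora, encoding RORα, changed by -0.45 (SE 0.14, limma adjusted p = 0.0197), from 3869, 3149, 3582 and 3701 to 2964, 2147, 3425 and 2126, and lost its call without D3TAM957 or D3TAM960. Batf, encoding an AP-1 family factor needed for Th17 cells, changed by -0.42 (SE 0.13, limma adjusted p = 0.0146), with overlap between D3955 and D3TAM957. Stat3 stood at 13414, 17146, 18136 and 17844 and 13522, 13738, 15921 and 12762 (log2 change -0.24, SE 0.11, limma adjusted p = 0.0712), and passed as lower without D3955 (limma adjusted p = 0.00648) or D3TAM959 (0.0398). Maf and Runx1 spread more between libraries than between groups, with log2 changes of -0.24 (SE 0.22) and -0.26 (SE 0.13). Runx1 passed as lower without D3TAM955 (limma adjusted p = 0.0174). The Ikaros family genes Ikzf3 and Ikzf1 did not pass either, at -0.14 (SE 0.13) and -0.14 (SE 0.07), and Ikzf1 passed without D3960 (limma adjusted p = 0.0418).

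Hif1a, encoding the oxygen-sensitive factor HIF-1α, was at 12948, 13908, 12886 and 17177 in sufficient libraries. In deficient libraries it was at 3032, 6948, 4125 and 5434. The highest deficient library, D3TAM957, stood far below the lowest sufficient one, and D3TAM955 was the lowest of all (log2 change -1.60, SE 0.20, limma adjusted p = 5.9e-05). Nfkbiz, encoding IκBζ, a nuclear co-factor of the Il17 genes, went from 816, 2142, 2830.3 and 2504 to 540.2, 630.1, 555 and 514 (log2 change -1.75, SE 0.30, limma adjusted p = 0.000498). The 4 deficient libraries agreed closely and the sufficient library D3955 stood well below the other sufficient ones. Zbtb16, encoding PLZF, went from 317, 989.8, 1429.5 and 844 to 55.3, 80.8, 113 and 119, the deepest fall of the list (log2 change -3.14, SE 0.39, limma adjusted p = 4.72e-05).

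The receptor genes Il23r, Il1r1 and Il17re fell without overlap. Il23r, for the receptor of IL-23, stood at 282, 344, 342 and 386 and 75.5, 232, 132 and 185 (log2 change -1.22, SE 0.28, limma adjusted p = 0.00325). Il1r1, for an IL-1 receptor chain, stood at 162, 188, 296 and 355 and 94.9, 114, 75.7 and 115 (log2 change -1.26, SE 0.25, limma adjusted p = 0.00122). Il17re, for a receptor of IL-17 family cytokines, stood at 116, 174, 249 and 168 and 61.5, 24.2, 56.5 and 43.9 (log2 change -1.93, SE 0.31, limma adjusted p = 0.000271). In all of these receptor genes the groups were separate, with D3955 the lowest sufficient library. Il12rb1, a chain shared by the IL-12 and IL-23 receptors, overlapped, because D3TAM957 at 1978 lay within the sufficient range of 1721 to 2414 (log2 change -0.55, SE 0.19, limma adjusted p = 0.0293), and lost its call without D3TAM955, D3TAM959, D3955 or D3960 (limma adjusted p from 0.0506 to 0.0886).

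PLZF is also a marker of innate-like T cells, and cells of that kind make IL-17. Only markers listed as lower could be joined, so the direction of their sum was fixed by the naming. The summed level of 5 joined markers of γδ T and innate lymphoid cells, of 7 chosen, was 5688 to 7473 normalized counts in sufficient and 2767 to 3492 in deficient libraries. Most of that sum was Id2, which CD4 T cells also express and which went from 4969, 4956, 5262 and 5293 to 3055, 2484, 2301 and 2785. Tcrg-C1, a γδ T cell receptor constant gene, overlapped between groups, at 280.5, 369, 556 and 513 in sufficient and 261, 182, 264 and 411 in deficient libraries. The part of such cells in the changes of the Th17 genes was not tested.

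The same contrast in cells taken after 6 days in IL7, before any Th17 polarization, was compared with that in Th17 cells. The Th17 libraries had 3 more days of culture, so polarization and time after tamoxifen cannot be told apart here. The comparison used an interaction term for the members of both Th17 lists. It was fitted on all 16 libraries, where 2618 of 15088 rows (17.4%) changed more negatively in Th17 cells and 2883 (19.1%) more positively. Of the 7144 named genes in that fit, 33.3% were more negative and 0.308% more positive. Of the 16 list members settled in all 4 groups, 6 passed. The fall of Il17a in Th17 cells exceeded its change in IL7 cells by -2.85 ± 0.67 (SE, limma adjusted p = 0.00305), with means of only 2.91 and 0.934 normalized counts in the IL7 groups. The difference was -1.58 ± 0.47 (SE, limma adjusted p = 0.0139) for Il17f and -1.51 ± 0.26 (SE, limma adjusted p = 0.000251) for Hif1a. Hif1a was at means of 2968 in sufficient and 2753 in deficient IL7 cells. Nfkbiz differed by -1.31 ± 0.36 (SE, limma adjusted p = 0.00835) and Ikzf1 by -0.39 ± 0.11 (SE, limma adjusted p = 0.0138). Ikzf3 went the other way, at 0.71 ± 0.21 (SE, limma adjusted p = 0.0135), with means of 2872 in sufficient and 1558 in deficient IL7 cells. Il22 did not pass, at -2.16 ± 1.09 (SE, limma adjusted p = 0.132).

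TGF-β signalling acts through SMAD factors and is needed for both Th17 and regulatory T cells. Tgfb3, which encodes a TGF-β cytokine made by Th17 cells, fell deepest in its list, from 148, 314, 234 and 335 to 2.64, 23.3, 4.79 and 16.4 normalized counts. No deficient library reached 25, and no sufficient one was under 148 (log2 change -4.67, SE 0.53, limma adjusted p = 2.72e-05). Ltbp4, encoding a protein that binds latent TGF-β in the matrix, went from 52.4, 49.1, 53.04 and 88.02 to 10.5, 10.8, 9.58 and 22.4 (log2 change -2.14, SE 0.32, limma adjusted p = 0.000192), and D3960 and D3TAM960 were the highest of their groups. Over the list, 9 of 19 tested members fell, 4 by 2-fold or more, with a median log2 change of -0.42, which is near that of all named genes.

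In the regulatory T cell list 8 of 10 tested members fell, with a median of -0.84. Ctla4, encoding an inhibitory receptor that competes for CD28 ligands, stood at 16275, 13370.0, 12829 and 15065 and 2673, 6908, 4645 and 4126 (log2 change -1.72, SE 0.22, limma adjusted p = 5.16e-05). Tigit, another inhibitory receptor gene, stood at 282, 243, 254 and 581 and 21.1, 50.8, 29.7 and 64.6 (log2 change -3.03, SE 0.36, limma adjusted p = 3.43e-05). Both genes separated the groups completely, and D3TAM955 was the lowest library for both. Of the lists of other helper fates, 7 of 8 tested members of the Th2 list fell and 6 of 11 tested members of the Th1 list, the latter near the share of all named genes. Il4, the Th2 cytokine gene, went from 68.2, 367, 449 and 336 to 32.5, 50.8, 49.8 and 53.4 (log2 change -2.41, SE 0.48, limma adjusted p = 0.00129), a fall that without D3955 came to -3.03. Nfil3, a factor gene induced by IL-4 and tied to the circadian clock, went from 2395, 3312, 3550.3 and 4070.2 to 583, 1081, 879 and 989.7 (log2 change -1.93, SE 0.19, limma adjusted p = 1.1e-05). In the Th1 list Stat4, which transmits IL-12 signals, went from 308, 342, 283 and 484 to 106, 188, 171 and 152 (log2 change -1.19, SE 0.21, limma adjusted p = 0.000502), and the chemokine gene Ccl5 changed by -1.81 (SE 0.35). Ascl2, a factor of follicular helper T cells, was low in sufficient libraries, at 29.6, 18.4, 23.5 and 19.2, and at 0.88, 1.67, 0.96 and 1.72 in deficient ones (log2 change -3.36, SE 0.37, limma adjusted p = 2.11e-05).

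Genes of the T cell receptor complex and its proximal signalling fell in 19 of 26 tested members, by modest amounts, with a median log2 change of -0.48 and 3 members past 2-fold. Sla, encoding an adaptor that lowers T cell receptor levels, led with 1329, 934, 979 and 1266 in sufficient and 152, 268, 158 and 204 in deficient libraries (log2 change -2.54, SE 0.18, limma adjusted p = 1.4e-06). Txk, encoding a TEC family kinase, went from 321, 479.6, 440.0 and 662 to 150.2, 207, 182 and 152 (log2 change -1.42, SE 0.20, limma adjusted p = 0.000113). The 7 joined CD4 T cell markers, of 11 chosen, summed to 57798 to 61620 normalized counts in sufficient and 35469 to 39544 in deficient libraries. All 7 are listed as lower, so the direction of the sum was fixed by the naming. Cd4 itself was at 9134, 7630, 6809 and 8438 in sufficient and at 5947, 6310, 5632 and 5930.2 in deficient libraries, so the labelled cell type showed its defining gene in all 8. Cd3d, an invariant chain of the receptor complex, was at 5686, 5902, 5529 and 6986 in sufficient and 3305, 2886, 3046 and 3028 in deficient libraries. These libraries did not overlap for Cd4 or Cd3d.

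Genes that T cell activation induces fell in numbers that moved with the libraries left out. In the list of AP-1, NR4A and early response genes 12 of 18 tested members fell, and the count ran from 5 to 17 when libraries were left out. It was 17 without D3955, 7 without D3957 or without D3960 and D3TAM960, and 5 without D3959 and D3TAM959. D3955 was the lowest sufficient library for 16 of the 18 members. Fosl2, encoding an AP-1 subunit that acts on Th17 genes, stood at 7999.9, 10237, 10282 and 12069.5 in sufficient and 2271, 3493, 2925 and 2431 in deficient libraries, far apart (log2 change -1.87, SE 0.14, limma adjusted p = 2.14e-06). Ier3, an early response gene induced by NF-κB, stood at 2305, 3446, 4124 and 3723 and 690.4, 1679, 1183 and 1500.4 (log2 change -1.47, SE 0.25, limma adjusted p = 0.000427).

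In the NF-κB list 9 of 13 tested members fell, with D3955 lowest in its group for 11 of the 13. Nfkbia, encoding the inhibitor IκBα and a direct NF-κB target, went from 3954, 9700.0, 13270.0 and 10775 to 3369, 2949.6, 2724 and 3422 (log2 change -1.47, SE 0.29, limma adjusted p = 0.00111). Tnfaip3, encoding the inhibitor A20, went from 3186, 5905, 7148 and 6425 to 2373, 2274, 2545 and 2419 (log2 change -1.17, SE 0.20, limma adjusted p = 0.0004). For both genes D3955 came close to the deficient libraries without reaching them, and the 3 other sufficient libraries stood clear.

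TNF receptor family genes, many of them costimulatory receptors, fell in 7 of 10 tested members. Tnfrsf9, encoding 4-1BB, was at 3170.3, 3118, 2607 and 8377 in sufficient and 408, 768, 624 and 960.4 in deficient libraries (log2 change -2.54, SE 0.34, limma adjusted p = 7.29e-05). D3960 was more than 2-fold above the other sufficient libraries. Tnfrsf4, encoding OX40, was at 6834, 9119, 10242 and 9377 and 2211, 3188, 2582 and 2632, more even within groups (log2 change -1.74, SE 0.13, limma adjusted p = 1.93e-06). Among ligands of the family 4 of 8 tested members fell, near the 50.9% of all named genes. The count was 7 without D3955 and 2 without D3959 and D3TAM959, or without D3960 and D3TAM960. Tnfsf9, the ligand of 4-1BB, changed by -1.78 (SE 0.24) and Tnfsf14, encoding LIGHT, by -2.15 (SE 0.27). In the JAK-STAT list 8 of 14 tested members fell (57.1%, against 50.9% of all named genes), and 13 did without D3955. Jak3, the kinase of the common γ chain, was at 12530.2, 16031, 17226 and 21435 and 7422, 9652, 10361 and 8825 (log2 change -0.88, SE 0.15, limma adjusted p = 0.000429).

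Integrin and adhesion genes fell in 18 of 22 tested members (median -0.82, 16 to 18 when libraries were left out). Itga3, encoding an integrin α chain that binds laminin, stood at 1222, 1275, 1525 and 1971 and 254, 295, 207 and 216, with groups far apart (log2 change -2.61, SE 0.16, limma adjusted p = 5.73e-07). Itgb3, encoding the β3 chain, stood at 196, 577, 576 and 516 and 56.2, 65.8, 37.4 and 68.9, with D3955 low among the sufficient libraries (log2 change -2.92, SE 0.33, limma adjusted p = 2.44e-05). Pecam1, the adhesion gene for CD31, stood at 1521, 1349, 1224 and 1298 and 291, 363, 229 and 263 (log2 change -2.25, SE 0.14, limma adjusted p = 5.29e-07). Among chemokine receptor genes 7 of 12 tested members fell (58.3%, against 50.9% of all named genes), a count that no left-out library changed. Of these, 6 fell by 2-fold or more. Ccr10, for a receptor of skin and mucosal chemokines, was at 14.8, 54.2, 62.6 and 41.8 in sufficient and 0, 0.83, 0.96 and 4.31 in deficient libraries (log2 change -4.23, SE 0.58, limma adjusted p = 8.93e-05). The deficient Ccr10 values stand for a handful of reads. Cxcr2, known from neutrophils, was also low, at 84.9, 26.6, 40 and 37.2 and 0.88, 18.3, 4.79 and 10.3 (log2 change -2.65, SE 0.63, limma adjusted p = 0.00391), and its change was -2.02 without D3TAM955.

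MHC and antigen processing genes fell in 16 of 19 tested members, 9 by 2-fold or more, with a median of -0.75. H2-Q10, a non-classical class I gene, went from 495, 438, 556 and 1163 to 7.91, 59.2, 62.3 and 50.8 (log2 change -4.07, SE 0.55, limma adjusted p = 8.38e-05), and by -3.40 without D3TAM955. Class I genes are near copies of one another, so the reads of H2-Q10 may be shared with them and its values are uncertain. H2-Ab1, encoding a class II β chain that mouse T cells hardly express, went from 1168, 1141, 1060.0 and 2120.3 to 50.1, 233, 217 and 219.6 (log2 change -3.09, SE 0.42, limma adjusted p = 9.5e-05). D3960 was the highest and D3TAM955 the lowest library for both genes. Summed markers of other cell types, those that carry class II among them, ran lower in deficient libraries, with overlap for dendritic markers. Here too only markers listed as lower could be joined, so the direction of these sums was fixed by the naming. The 7 joined B cell markers, of 9 chosen, summed to 558 to 935 normalized counts in sufficient and 195 to 481 in deficient libraries, mostly Ighm and Blk. The defining B cell genes Ms4a1, Cd22 and Bank1 were at 0 to 14.7 in all 8 libraries. The B cell receptor gene Cd79a was at 25.6 to 47.4 in sufficient and 18.1 to 27.8 in deficient libraries, and Cd79b was at 10.2 to 26.0 and 2.87 to 7.50, without overlap. The dendritic list, with 3 of 6 joined, summed to 982 to 1776 and 536 to 1092, nearly all of it Batf3, which T cells also express, with Flt3 and Xcr1 at 13.3 to 37.8. The myeloid markers Cd68 and Fcgr3, 2 of 12, summed to 127 to 186 and 61.7 to 68.5. CD8 T cell markers (2 of 2) summed to 231 to 519 and 113 to 196, and Klre1, the joined NK cell marker of 6, was at 171 to 252 and 48.3 to 105. The erythroid marker Alas2, 1 of 6, was at 11.9 to 17.4 and 3.83 to 7.50. The part of such cells in the changes of class II genes was not tested.

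Interferon-induced genes fell in 13 of 24 tested members (54.2%), near the 50.9% of all named genes. Of these, 11 fell by 2-fold or more, where the share over all named genes was 21.1%. The count of 13 became 9 without D3960 and D3TAM960. Ifitm2, encoding a membrane protein that restricts virus entry, went from 569.9, 773, 705 and 1167 to 96.6, 118, 132 and 219 (log2 change -2.52, SE 0.25, limma adjusted p = 1.2e-05). Xaf1, an interferon-induced gene linked to cell death, was low, at 21.7, 42.95, 20.9 and 60.9 and 11.4, 14.2, 0 and 5.17 (log2 change -2.55, SE 0.74, limma adjusted p = 0.0125), and changed by -1.70 without D3TAM959.

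Hypoxia-response and glycolysis genes fell, and the deficient library D3TAM955 was the lowest for most of them. HIF-1α pairs with ARNT, binds the core ACGTG in hypoxia response elements and raises genes of glucose uptake, glycolysis and lactate export. Of the HIF target list 23 of 24 members are listed as lower in the authors' deposited table, 18 of 23 tested members fell, 8 by 2-fold or more, and the median log2 change was -0.86. Of glycolysis genes 23 of 26 are listed, and 17 of 22 tested members fell, 2 by 2-fold or more, with a median of -0.60. The counts ran from 14 to 19 and from 13 to 18 when libraries were left out.

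Summed over the HIF list, D3TAM955 held 39907 normalized counts and the 3 other deficient libraries 62695 to 70029, against 109409 to 148615 in sufficient libraries. D3TAM955 was the lowest deficient library for 19 of 23 HIF targets and for 19 of 22 glycolysis genes. The median member lay at -1.50 on the log2 scale against the sufficient mean in D3TAM955, and at -0.73, -0.74 and -0.75 in the other deficient libraries. The same medians for glycolysis were -0.96 and -0.40, -0.46 and -0.36. D3TAM955 was also the lowest deficient library for 58 of 73 cytosolic ribosomal protein genes and 16 of 24 respiratory chain genes. In the TGF-β list it was the lowest for 3 of 19 members and the highest for 10.

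**Figure D4:**
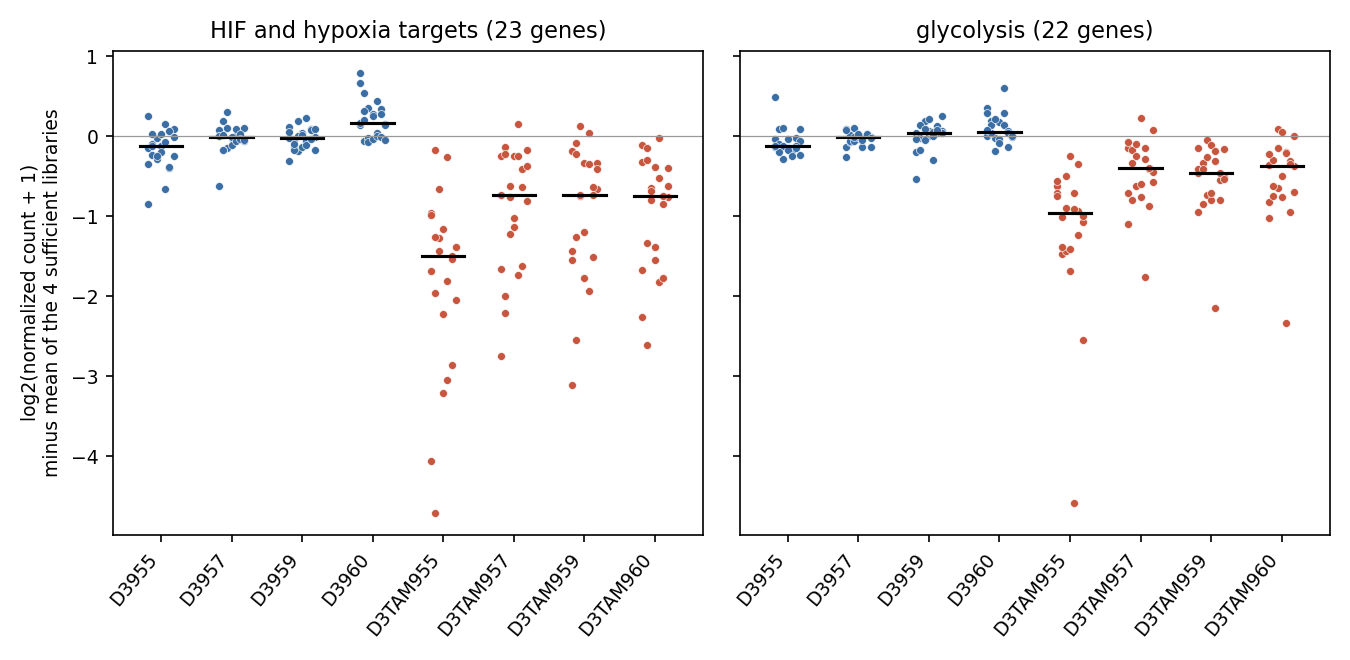
Log2(normalized count + 1) of each tested member of the HIF target list (left, 23 genes) and the glycolysis list (right, 22 genes) in each of the 8 libraries, relative to the mean of the 4 sufficient libraries (blue; deficient red), with bars at the medians. All deficient medians lie below 0, and D3TAM955 is the lowest, at -1.50 and -0.96.

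P4ha2, encoding a prolyl hydroxylase that matures collagen, went from 857, 898, 921 and 1473 to 37.8, 218, 172 and 165 normalized counts (log2 change -3.02, SE 0.44, limma adjusted p = 0.000138). Slc16a3, encoding the lactate exporter MCT4, went from 5797, 4979, 5610.3 and 5409.6 to 929, 3658, 3762 and 3364 (log2 change -1.09, SE 0.35, limma adjusted p = 0.0219). D3TAM955 stood far below the other deficient libraries for both, and Slc16a3 lost its call without D3960 and D3TAM960 (limma adjusted p = 0.0575). Their upstream sequences are shown because both hold the core ACGTG within 250 bases of the RefSeq start site (GRCm38.p6), P4ha2 at chr11:54100674-54100923, plus strand, and Slc16a3 at chr11:120948817-120949066, plus strand. Capitals mark ACGTG or its reverse complement CACGT.
P4ha2: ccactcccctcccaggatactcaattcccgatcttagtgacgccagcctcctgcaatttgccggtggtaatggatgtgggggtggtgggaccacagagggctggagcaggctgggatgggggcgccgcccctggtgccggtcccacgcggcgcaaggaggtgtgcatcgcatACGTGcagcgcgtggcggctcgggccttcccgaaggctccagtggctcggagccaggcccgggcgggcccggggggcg
Slc16a3: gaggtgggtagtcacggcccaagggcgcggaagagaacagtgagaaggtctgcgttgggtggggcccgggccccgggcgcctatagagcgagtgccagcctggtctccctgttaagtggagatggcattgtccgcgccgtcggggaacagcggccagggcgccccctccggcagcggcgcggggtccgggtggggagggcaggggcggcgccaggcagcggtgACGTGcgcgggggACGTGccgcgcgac
P4ha2 held 1 match and Slc16a3 held 2. A match on either strand stood in the same window of 12 of 19 tested HIF targets and 9 of 22 glycolysis genes that have an entry in the RefSeq table. Over all 27025 genes of the table the share was 16.6%. Slc2a1 stands in both counts. The HIF list was chosen as targets of HIF, so its share describes the list and is not a result of these libraries. A match in one window describes letters only, and the same core is part of the E-box CACGTG that other factors bind.

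Adm, encoding the peptide adrenomedullin, went from 155, 279, 289.6 and 485 to 15.8, 40.8, 31.6 and 57.7 (log2 change -3.04, SE 0.39, limma adjusted p = 6.16e-05). Aldoc, encoding aldolase C, went from 1657, 1687, 1511 and 2814 to 76.4, 547, 419.7 and 369 (log2 change -2.70, SE 0.48, limma adjusted p = 0.000614), and by -2.08 without D3TAM955. Hif3a, encoding a HIF subunit that HIF-1α induces and that can inhibit it, was among the deepest falls of named genes with a mean of at least 100 normalized counts, from 259.8, 251, 236 and 339 to 8.78, 26.7, 23 and 24.1 (log2 change -3.74, SE 0.31, limma adjusted p = 3.07e-06). In all of these genes the groups were separate and D3TAM955 was the lowest library.

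The lipid synthesis list showed a like pattern over libraries. In it 11 of 17 tested members fell, and D3TAM955 was the lowest deficient library for 15 of the 17. Scd1, encoding a fatty acid desaturase, went from 1551, 1809.9, 1447 and 2279 to 43.04, 456, 419.7 and 626 (log2 change -2.69, SE 0.64, limma adjusted p = 0.00396), and by -1.82 without D3TAM955. Its relative Scd2 went from 27685, 33614, 31182 and 33492 to 8729, 16278, 16517 and 15919.9 (log2 change -1.18, SE 0.18, limma adjusted p = 0.000191). In the list of amino acid stress genes, which ATF4 induces, 11 of 16 tested members fell, 6 by 2-fold or more. Nupr1, encoding a small stress-induced chromatin protein, went from 347, 547, 909 and 785 to 170.4, 58.3, 75.7 and 85.3 (log2 change -2.75, SE 0.34, limma adjusted p = 4.52e-05), here with D3TAM955 the highest deficient library. Vldlr, encoding a lipoprotein receptor, went from 817, 528, 500.0 and 711 to 31.6, 154, 164 and 119 (log2 change -2.65, SE 0.42, limma adjusted p = 0.000277). Among chaperone genes 6 of 13 tested members fell (46.2%, against 50.9% of all named genes). The count was 2 without D3959 and D3TAM959 and 3 without D3960 and D3TAM960. Hspa5, the main chaperone of the endoplasmic reticulum, was at 7725, 9329.9, 9435 and 18979 and 5049, 6277, 5076 and 6871, and D3960 stood far above the other libraries (log2 change -0.89, SE 0.23, limma adjusted p = 0.00599). Atf6, encoding a sensor of unfolded proteins, was at 1200.0, 1656, 1787 and 2646 and 691, 1105, 717 and 903 (log2 change -1.06, SE 0.21, limma adjusted p = 0.00132).

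The lists of mitochondrial genes held no member with a fall of 2-fold or more. Of the respiratory chain list 24 of 58 members are listed as lower and 11 of 24 tested members fell, a share below that of all named genes, with a median of -0.20 that is closer to 0 than that of all named genes. The count was 6 without D3957 and D3TAM957, or without D3959 and D3TAM959. Ndufa7, a complex I subunit gene, was at 2395, 2317, 2426 and 2601 and 1580.2, 1534, 1666 and 1517 (log2 change -0.63, SE 0.07, limma adjusted p = 2.5e-05). In the list of the tricarboxylic acid cycle and glutaminolysis 5 of 9 tested members fell, near the share of all named genes, and 3 without D3957. Of pentose phosphate and one-carbon genes only 7 of 27 are listed as lower, and 2 of 7 tested members fell, Mthfd1l (-0.80, SE 0.12) and Psph (-0.31, SE 0.10). This count was 5 without D3TAM957 and 1 without D3TAM959, and Psph lost its call without the latter (limma adjusted p = 0.057).

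Inhibitors of the cell cycle and cell cycle genes both held members that fell, and the lists were not tested against each other. Of cyclin-dependent kinase inhibitors and RB family genes 9 of 10 tested members fell (median -0.70), 5 without D3959 and D3TAM959. Of cell cycle genes 8 of 17 tested members fell, 47.1% against 50.9% of all named genes (median -0.30). Cdkn1b, encoding p27, was at 8093, 9074, 9592 and 9322 in sufficient and 3789, 4491, 4648 and 4579 in deficient libraries (log2 change -1.05, SE 0.09, limma adjusted p = 2.89e-06). Cdkn1a, encoding p21 and a p53 target, was at 8717, 15645, 17509 and 13062 and 8661, 6652, 6897 and 7456. D3955 and D3TAM955 came within 1% of each other for this gene (log2 change -0.85, SE 0.18, limma adjusted p = 0.00182). Cdkn1c, encoding p57, was at or below 24.5 in every library and changed by -1.84 (SE 0.43). Tk1, the thymidine kinase gene of S phase, led the cell cycle list, from 2908, 3571, 3839 and 2598 to 1586, 1521, 1453 and 1443 (log2 change -1.09, SE 0.11, limma adjusted p = 1.5e-05). Cdc25b, encoding a phosphatase that activates cyclin-dependent kinases, was at 3647, 3751, 3829 and 2930.5 and 1996, 2240.4, 2116 and 2177 (log2 change -0.72, SE 0.09, limma adjusted p = 5.35e-05).

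Genes of the Bcl2 family and caspases fell in 10 of 13 tested members, and in 6 without D3957, D3TAM960 or the pair of D3959 and D3TAM959. Bcl2, which blocks mitochondrial cell death, was at 6099.7, 7802, 7129 and 8406 and 2012, 5205, 3901 and 3845 (log2 change -1.05, SE 0.23, limma adjusted p = 0.00218). Bcl2l2, encoding its relative BCL-W, was at 1055, 1227, 1257 and 1346 and 722, 595, 691 and 587 (log2 change -0.91, SE 0.10, limma adjusted p = 2.79e-05).

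Cytosolic ribosomal protein genes are listed as lower in 73 of 79 cases. Of 73 tested members 42 fell (57.5%, against 50.9% of all named genes). Their median was -0.23, against -0.46 for all named genes. Other scalings moved the median of all rows by 0.05 (trimmed mean) and 0.03 (median of ratios). Under trimmed-mean scaling 28 ribosomal protein genes fell and the median was -0.18, under median-of-ratios scaling 33 with -0.20, and none was higher under either. The count was 25 without D3955 and D3TAM955 and 25 again without D3959 and D3TAM959. Rpl22l1, encoding a paralog of the ribosomal protein RPL22, stood apart with 2967, 3469.6, 4059 and 4238 in sufficient and 1305, 1330.2, 1485 and 1574 in deficient libraries (log2 change -1.36, SE 0.11, limma adjusted p = 3.24e-06). Genes that build ribosomes and respond to MYC mostly carry no name. Only 2 of 35 of them are listed as lower, against 47.9% of all rows of the table. Taf1d, a subunit gene of the factor SL1 of RNA polymerase I, was the member that fell, at 3697, 4312, 4498 and 5493 and 3200.0, 3271, 3175 and 2982 (log2 change -0.50, SE 0.10, limma adjusted p = 0.00184). Whether the other members were higher could not be read, since they carry no name.

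Lists of chromatin regulators ranged from below to above the share of all named genes. Of the Sin3 complex list 9 of 30 members are listed as lower, against 47.9% of all rows of the table, and 7 of 9 tested members fell, with a median of -0.35. Tet1, encoding a 5-methylcytosine dioxygenase that binds SIN3A, stood at 157, 129, 105 and 135 and 28.99, 47.5, 37.4 and 23.3 (log2 change -1.94, SE 0.25, limma adjusted p = 5.32e-05). Tet2, encoding its relative, stood at 2068, 5363, 5574 and 6026 and 1091, 1617, 1551 and 1317 (log2 change -1.67, SE 0.28, limma adjusted p = 0.000411). D3955 was low among sufficient libraries for Tet2 and the highest of them for Tet1, so the library pattern of both genes differed. Kdm5a, encoding a demethylase of H3K4 that joins Sin3 complexes, was at 2573, 3768, 3565 and 4386 and 2099, 2177, 2269 and 2099 (log2 change -0.70, SE 0.13, limma adjusted p = 0.000891). Hdac7, encoding a class IIa deacetylase abundant in T cells, was at 8908, 13872, 16081 and 18204 and 5447, 6720.2, 6243 and 5359 (log2 change -1.22, SE 0.18, limma adjusted p = 0.000156). Of histone methylation and Polycomb genes 9 of 22 tested members fell, 14 without D3955 and D3TAM955. Of DNA methylation genes 8 of 10 tested members fell, 5 without D3959 and D3TAM959, and of chromatin remodellers 12 of 15 tested members, where none passed 2-fold. The remodeller gene Srcap, which loads the histone variant H2A.Z, changed by -0.94 (SE 0.21) and Mta3, a NuRD subunit gene, by -0.67 (SE 0.09). Among factors that recruit Sin3, 6 of 13 tested members fell, 3 without D3959 and D3TAM959, and the leading ones were Bcl6 (-0.66, SE 0.12) and Sp1 (-0.47, SE 0.10).

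Some genes known from other tissues were among the deepest falls. Of neuronal and REST target genes 7 of 11 tested members fell, 6 by 2-fold or more, with a median of -1.33, and 4 did without D3960 and D3TAM960. Only 13 of 35 of them are listed as lower, against 47.9% of all rows of the table. Cntnap1, encoding an axonal adhesion protein of the paranode, was at 214, 412, 656 and 511 and 19.3, 16.7, 18.2 and 26.7 (log2 change -4.31, SE 0.31, limma adjusted p = 1.2e-06). Sncb, encoding β-synuclein, was at 122, 71.6, 145 and 341 and 0.88, 9.17, 6.71 and 12.9 (log2 change -4.43, SE 0.60, limma adjusted p = 8.9e-05), and changed by -3.82 without D3TAM955. Scrt1, encoding a neuronal zinc finger repressor, was at 1197, 737, 642 and 1187 and 27.2, 123, 122 and 64.6 (log2 change -3.64, SE 0.41, limma adjusted p = 2.43e-05). For each of these genes every deficient library lay below every sufficient one. Of 24 germline genes only 4 are listed, a smaller share than of all rows. All 4 fell, 2 without D3957 and D3TAM957, and Spo11 lost its call under 9 of the 23 alternatives. Piwil2, encoding a PIWI protein, went from 556, 420.3, 389.6 and 414 to 86.1, 117, 115 and 116 (log2 change -2.02, SE 0.16, limma adjusted p = 2.24e-06). Dlk1, a paternally expressed imprinted gene, was low, at 34.6, 56.2, 52.2 and 45.1 and 12.3, 1.67, 0.96 and 4.31 (log2 change -3.43, SE 0.53, limma adjusted p = 0.000216).

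Of named genes with a mean of at least 100 normalized counts, Dhdh fell deepest. Dhdh, encoding a dihydrodiol dehydrogenase, stood at 176, 199, 197 and 253 in sufficient and 2.64, 5.83, 7.67 and 10.3 in deficient libraries (log2 change -4.87, SE 0.33, limma adjusted p = 9.25e-07). Tgm1, a transglutaminase gene known from skin, went from 107, 201, 182 and 397 to 4.39, 15, 2.87 and 15.5 (log2 change -4.53, SE 0.51, limma adjusted p = 2.53e-05). Bzrap1, encoding a RIM-binding protein, was at 1982, 3015, 4126 and 3803 and 235, 169, 213 and 271 (log2 change -3.82, SE 0.21, limma adjusted p = 3.42e-07). The groups lay far apart for each of these genes. Selenbp1, encoding a selenium-binding protein, changed by -4.03 (SE 0.64), and by -3.26 without D3TAM955.

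The genes with the smallest p-values follow, chosen among genes whose groups did not overlap. Arhgef39, encoding a guanine nucleotide exchange factor, was at 601, 742, 800.0 and 657 in sufficient and 128, 128, 141 and 109 in deficient libraries (log2 change -2.46, SE 0.13, limma adjusted p = 3.31e-07). Inppl1, encoding the lipid phosphatase SHIP2, was at 1046, 1071, 1043 and 1158 and 378, 345, 334 and 351 (log2 change -1.61, SE 0.09, limma adjusted p = 3.42e-07). Gem, encoding a small GTPase induced on T cell activation, was at 2025, 2286, 2863 and 3439 and 242, 373, 341 and 331 (log2 change -3.03, SE 0.17, limma adjusted p = 3.42e-07). In each of these genes the lowest sufficient library was more than 2-fold above the highest deficient one. Nckap1, a subunit gene of the WAVE actin regulator, was at 1080.5, 863, 896 and 1061 and 224, 274, 236 and 232 (log2 change -2.01, SE 0.11, limma adjusted p = 3.42e-07). Neil1, a DNA glycosylase gene of base excision repair, was at 649, 792, 765 and 913 and 193, 173, 148 and 152 (log2 change -2.22, SE 0.13, limma adjusted p = 5.4e-07).

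**Figure D5:**
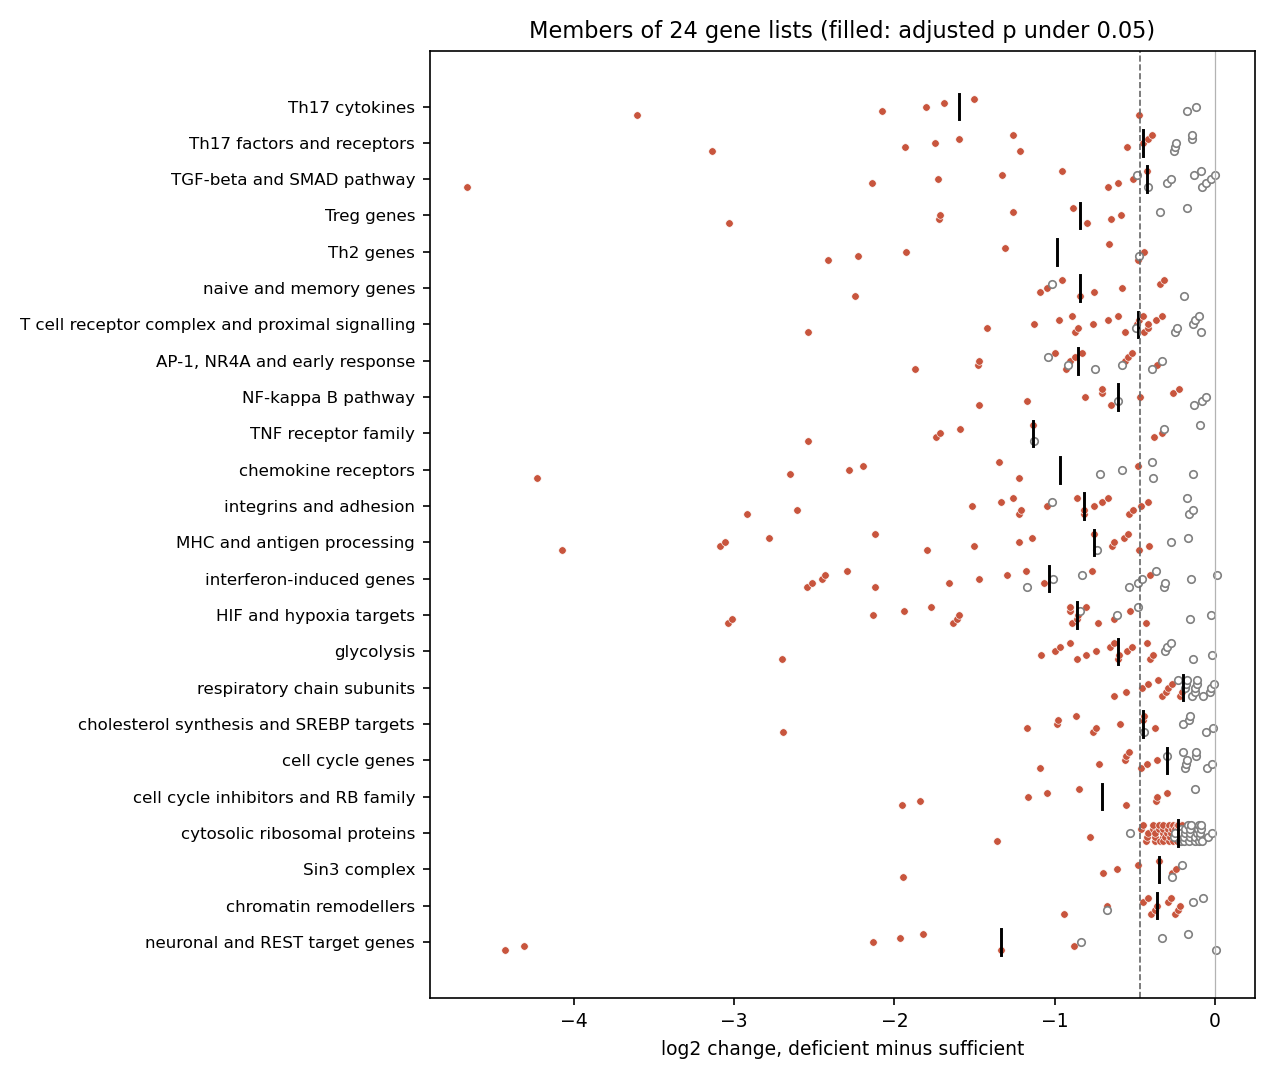
Log2 change (deficient minus sufficient) of each tested member of a selection of gene lists, filled where the limma adjusted p was under 0.05 and open otherwise, with a bar at the median of each list and a dashed line at the median of all named genes (-0.46). Th17 cytokines (median -1.60) and neuronal genes (-1.33) lie to the left, and respiratory chain (-0.20) and ribosomal protein genes (-0.23) to the right of the dashed line.

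The smallest changes among named genes with a mean of at least 1000 normalized counts were near 0. Gnb2l1, encoding the ribosome-bound scaffold RACK1, was at 46616, 40696, 44146 and 47274 and 42996, 43644, 46249.7 and 45728 normalized counts, with a log2 change of 0.00 and an SE of 0.08. Ctsa, encoding a lysosomal carboxypeptidase, was at 3208, 3398, 3505 and 3655 and 3431, 3472, 3505 and 3334 with an SE of 0.07. The demethylase gene Kdm4c was at 1042, 1216, 1131 and 1126 and 1059, 1145, 1139 and 1169. In these genes the libraries of both groups were interleaved. A p that misses the threshold does not show that the levels were equal.

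The libraries D3955, D3TAM955 and D3960 often sat at the ends of their groups. Among the 1990 rows that fell by 2-fold or more, D3955 was the lowest sufficient library in 910 (45.7%) and D3960 the highest in 982 (49.3%). D3TAM955 was the lowest deficient library in 760 (38.2%). Among the 982 rows that rose by 2-fold or more, D3955 was the highest sufficient library in 486 (49.5%) and D3960 the lowest in 413 (42.1%). Over all tested rows D3955 was lowest in 30.2% and highest in 32.7%. Without D3955 and D3TAM955, 4556 rows were lower and 4143 higher.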

How the data were processed

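RNA was sequenced from poly(A) RNA, about 100 ng per library, with a stranded kit and paired reads of 59 cycles, per the labels' protocols. The submitters' processing notes name Trim Galore 0.4.4, STAR 2.6, the mouse build NCBIM37, featureCounts, edgeR and DESeq2 among the tools the authors used, without a role or setting for each. The deposited table holds 17850 rows of normalized counts for 16 libraries and, for 8552 names, the authors' log2 fold change with its standard error. Beside these it holds the authors' test statistic (a score), p-value and adjusted p-value, which were used nowhere here. The available reference differs in build, so coordinates are given only for RefSeq promoters (GRCm38.p6).

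The deposited values had lost their decimal points and stood in another order than the names. Values are whole reads times 1 step per library (99.993% of 278604 nonzero values), so the power of 10 of each was restored by how well the 4 libraries of its group then agreed. This raised 8.56% of nonzero values. A row counted as settled at a posterior of at least 0.95, or once a name was joined to it (16703 rows in the Th17 groups, 93.6%). Names stand only beside lower genes, so this rule let in lower rows more readily than higher ones. With all rows, settled or not, 4548 were lower and 4223 higher. A name went to a row if the restored reads returned the authors' log2 fold change to within 1e-06 and the next row missed it by 20 times more. This joined 8101 names (94.7%), 340 of them on next-best powers. In those 340 rows the match to the authors' fold change also set the powers of 10, and so the values tested. In the other joined rows it left the powers of the Th17 groups unchanged. Of 1000 decoys with shifted fold changes 6 were joined in the first search and 9 in the second. Of 7197 joined rows that were settled before the join 7141 (99.2%) kept their powers. Tested on simulated data, 99.4% of settled rows were exact in the Th17 groups, and 999 of 1000 names were joined correctly and 0 wrongly. The simulation was drawn around the restored values, so errors already made there count as right.

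Groups came from the sample labels. limma 3.58.1 in R 4.3.3 with a variance trend was fitted to log2(normalized count + 1) of the 8 Th17 libraries, over rows with a mean of at least 5 in 1 group, so fold changes of low genes are understated. P-values were adjusted by Benjamini-Hochberg over all rows tested, with a threshold of 0.05. The interaction was fitted on all 16 libraries. On data simulated over 16071 rows, 30.3% of 66 changed genes were recovered at a log2 change of 0.5, 89.6% of 67 at 1 and 98.5% of 67 at 2. Far fewer rows were changed there than were called in the data, and none with a low mean. The spread was assumed, so these shares do not give the power of the Th17 comparison. Named are Sin3a, every joined member of both Th17 lists, and up to 2 members of every other list by size of change. Those members of other lists were taken from genes that passed without overlap. So were the 15 largest changes and 15 smallest p-values with a mean of at least 100. Named too are the 10 smallest changes with a mean of at least 1000. Of these 145 genes the text describes a part, and some results are not reported here. Cell type markers were given besides. The members, lists and motifs were chosen with earlier results of these data known. Alternatives were other scalings, pseudocounts, filters and row sets, a replicate block, libraries left out and limma voom, the last chosen after seeing the data.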

Additional observations from a re-analysis of the deposited data

Results flagged for a closer look

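In each of the 145 genes chosen by the naming rule, the highest and the lowest of the 4 libraries of each group were compared with the other 3. Of 290 such groups 30 (10.3%) held a library set apart by a gap beyond Dixon's critical value for 4 samples, where chance flags about 1 group in 20. D3960 accounted for 13 of these, D3TAM955 for 7, D3955 and D3TAM960 for 4 each, and D3TAM957 and D3TAM959 for 1 each. The genes of a group are not independent of one another.

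D3960 stood above the other sufficient libraries for Tnfrsf9 (8377 normalized counts against 2607 to 3170), Tigit (581 against 243 to 282), H2-Q10 (1163), H2-Ab1 (2120), Aldoc (2814), P4ha2 (1473) and Hspa5 (18979). It was also set apart for Ltbp4 (88.0), Mthfd1l (4755), Cst7 (1757), Hexa (527), Clk1 (7178) and D10Bwg1379e (900.5). These genes are known for costimulation, antigen presentation, hypoxia responses and protein folding, among others. D3TAM955 stood below the other deficient libraries for Slc16a3 (929 against 3364 to 3762), Scd2 (8729 against 15920 to 16517), H2-Ab1 (50.1 against 217 to 233), Il4 (32.5), Sh2d1a (235) and Piwil2 (86.1). For Ikzf3 it stood above them (2674 against 2041 to 2136).

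D3955 stood below the other sufficient libraries for Itgb3 (196 against 516 to 577), Tet2 (2068 against 5363 to 6026) and Gm21971 (111 against 496 to 565), and above them for Phf20 (1251). D3TAM960 stood above the other deficient libraries for Il17a (350 against 133 to 168), Ltbp4 (22.4), Prdm1 (81.8) and Ndufa12 (1419). For Gm21971 D3TAM959 was high in its group (46.0 against 19.3 to 21.7), and for Fopnl D3TAM957 was low (974 against 1013 to 1018).

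The effect of deletion differed between Th17 and IL7 cells by the interaction test (limma adjusted p under 0.05) in 2618 rows that were more negative and 2883 rows that were more positive in Th17 cells. Among the Th17 list genes it differed by -2.85 on the log2 scale for Il17a, -1.58 for Il17f, -1.51 for Hif1a, -1.31 for Nfkbiz, -0.39 for Ikzf1 and 0.71 for Ikzf3.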

How the results depend on the processing

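Counts of called rows stayed within 1.5 times of those reported under other scalings, pseudocounts and filters, with all rows, in voom and with all 16 libraries in 1 fit. Over those for the Th17 comparison, 4033 (trimmed-mean scaling) to 4548 (all rows) were lower and 4040 (mean of at least 20) to 4426 (trimmed-mean scaling) higher. Higher rows outnumbered lower ones under trimmed-mean (4426 against 4033) and median-of-ratios scaling (4304 against 4200). Restricting the fit to the 7881 rows in which no value had been raised gave 2104 lower and 1790 higher rows, and for the interaction 612 more negative and 547 more positive of 4126, with fewer rows tested. Without 1 library number in both groups, 3351 to 4556 rows were lower and 3304 to 4143 higher, and without 1 Th17 library 3831 to 4597 and 3674 to 4284. For the interaction the counts were 1502 to 2453 more negative and 1779 to 2667 more positive without a number, both lowest without the libraries that end in the number of D3957, and 2341 to 2881 and 2622 to 3144 without 1 Th17 library. The edgeR quasi-likelihood and DESeq2 tests were not run, because the deposited values could not be declared as counts.

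The library numbers recur in both groups, but same-numbered libraries did not all deviate together. The correlations of their deviations from the group means were 0.20 for D3955 and D3TAM955, 0.04 for D3957 and D3TAM957, 0.23 for D3959 and D3TAM959 and 0.13 for D3960 and D3TAM960, so the numbers were not taken as pairs. Every library except D3TAM957 correlated best with the library of its own number in the other group. Only D3959 and D3TAM959 are labelled female, so the sex label recurs with the number too. The labels do not say what the numbers mark. With the number as a replicate block, 4501 rows were lower and 4081 higher, and 2867 and 3144 in the interaction. Under the block Stat3 passed (limma adjusted p = 0.0437), no other named gene changed its call in the Th17 comparison, and the members that fell rose from 8 to 13 of 14 in the JAK-STAT list and from 3 to 5 of 5 in the follicular helper list.

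Over the 23 alternatives the 145 named genes gave 3225 values, of which 3164 kept their direction and side of the threshold, 51 lost the call, 10 gained it and 0 reversed. Calls were lost, among others, by Spo11 (9), Il12rb1 (7), Sin3a (6) and Rora (5). Depth limits the low genes, where a normalized count is about 1 read.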
